A study of Bos taurus with 9 samples.

Results

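The aminoacyl-tRNA synthetases and the stress genes controlled by or with the transcription factor ATF4 were followed in 3D-cultured bovine uterine glands. The members were picked out by symbol, under a rule set with earlier results of these data known. It took any gene named as an amino acid letter followed by ARS, ARS1 or ARS2, and EPRS1. It also took 11 stress genes (ATF3, ATF4, ATF5, DDIT3, DDIT4, TRIB3, CHAC1, ASNS, SESN2, CEBPB and PCK2). This gave 45 of the 20679 listed genes, namely 18 synthetases of the cytosol, 16 synthetases of the mitochondria and the 11 stress genes. The 2 subunits of the cytosolic phenylalanine synthetase (FARSA and FARSB) and the paralogue TARS3 do not carry such a symbol and are described with the pathway lists.

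RNA was collected on day 5 from gland fragments of bovine uteri grown in Matrigel, a basement membrane gel, in a serum-free medium that contained insulin, transferrin, selenite, ascorbic acid and albumin in every group. The CYST group received no EGF and formed cysts. The MAT group received EGF, and its fragments formed elongated structures that resemble glands (UG-LIKE structures). The MAT + COL group received EGF in Matrigel mixed with type I collagen. The labels give no dose, and the study's methods give 5 ng/ml for EGF and 0.5 mg/ml for the collagen. Each group had 3 libraries. The sample titles number them 1 to 3, and these are the replicate numbers used here. The library names carry another numbering, which differs between the groups. The labels do not say whether the libraries came from separate animals, though the paper writes of individuals for MAT and MAT + COL. The p-values therefore measure the spread between these libraries.

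Each synthetase joins an amino acid to its transfer RNA, the step that supplies the ribosome with charged tRNA. The cytosol and the mitochondria use mostly separate sets of these enzymes, although GARS1 and KARS1 serve both compartments. When amino acids run short or unfolded protein builds up in the endoplasmic reticulum, kinases phosphorylate the translation factor eIF2, general translation slows, and the ATF4 mRNA is translated more. ATF4 then raises the transcription of genes for amino acid synthesis and transport, of many cytosolic synthetases, and of regulators such as DDIT3 and TRIB3. Because ATF4 is controlled at translation, its mRNA level is not a measure of its protein.

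Library totals were 6568968 to 17948600 counted reads. The labels name epithelial cells, and the summed TPM (a transcript level scaled to gene length and library size) of 8 epithelial markers was 20138 to 22555 in CYST, 31836 to 49261 in MAT and 32344 to 43641 in MAT + COL. Of these markers FOXA2, a transcription factor of uterine glands, was at 1.31 to 12.4 TPM. The 8 stromal markers summed to 2225 to 4798, 1191 to 3742 and 2197 to 4249 TPM, and the endothelial, muscle and immune lists each summed to less than 86 TPM in every library. Within them HBB of red cells was at 0 in all 9 libraries, MS4A1 of B cells in 8 and CD3E of T cells in 6. The summed TPM of 5 proliferation genes (MKI67, TOP2A, PCNA, MCM2 and MCM5) was 346 to 581 in CYST, 150 to 242 in MAT and 154 to 227 in MAT + COL. The epithelial sums were higher and the proliferation sums lower in every library with EGF than in every CYST library, and their part in the results below was not tested. KRT8 and KRT19 made up most of each epithelial sum. KRT7, KRT18, FOXA2 and CLDN4 overlapped between CYST and MAT, and CLDN4 was the only epithelial marker with a log2 fold change below 0 (edgeR, -0.31). Among the stromal markers VIM was above 0 (1.07) and every other marker below 0, such as DCN (-1.10). In these bulk libraries a smaller share of cells of a type and less RNA per cell cannot be told apart.

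The cytosolic synthetases were abundant in all groups. In CYST their mean TPM ran from 50.1 ± 7.86 (SD, n = 3) for QARS1, the glutamine enzyme, to 401 ± 94.8 for NARS1, the asparagine enzyme, and summed to 2585 to 3823 TPM per library. The mitochondrial synthetases ran from 1.61 ± 0.555 TPM for EARS2, the glutamate enzyme, to 102 ± 29.1 for IARS2, the isoleucine enzyme, and summed to 303 to 418 TPM. IARS2 was the only mitochondrial enzyme whose TPM was above that of its cytosolic counterpart, IARS1, in all 9 libraries. Its span overlaps BPNT1 on the opposite strand, itself at 93.8 to 192 TPM, so reads from the shared 13727 bases could have been counted for either gene. Among the stress genes ATF4 was the highest in CYST at 469 ± 98.3 TPM, followed by DDIT4 (249 ± 236), PCK2 (172 ± 52.8) and ASNS (115 ± 37.2). The spread of DDIT4 was as wide as its mean, so its place in this order is not settled. CEBPB was at 0.351 to 1.84 TPM (9 to 68 reads) and ATF5 at 0.275 to 1.94 TPM (2 to 18 reads).

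To examine what EGF changed, MAT was compared with CYST. Most cytosolic synthetases were lower with EGF: the log2 fold change was below 0 for 17 of 18, QARS1 being the exception, against 49.2% of the 12074 genes tested. Their median log2 fold change was -0.39, where that of all genes tested was 0.01. In the edgeR quasi-likelihood test without pairing, 0 of the 44 members tested passed an adjusted p of 0.05, where 0.944% of all genes were called lower and 0.845% higher. At an unadjusted p under 0.05 edgeR gave 10 members lower (11.3% of all genes) and 1 higher (9.35%). Libraries of the same number deviated together from their group means, and with the replicate number as a block edgeR called 5 members lower, 4 of them cytosolic synthetases (YARS1, MARS1, VARS1 and AARS1) and the other PCK2, with 5.67% of all genes called lower. No member was called higher with the block, where 4.9% of all genes were. DESeq2 called MARS1 and VARS1 without the block (4.37% of the 15495 genes with a count) and 7 members with it (6.51%), adding GARS1 and EPRS1 to the 5. Without the block the likelihood ratio test of edgeR called 0 members (4.42% of all genes lower), as did limma on log2(TPM + 1) (0.828%). With both libraries of 1 number left out, edgeR with the block called 0 members without the pair numbered 1 (0.112% of all genes lower) or 2 (2.69%), and 7 lower and 1 higher without the pair numbered 3 (7.69% and 7.66%). In those 3 fits YARS1 was at -0.80 to -0.68, MARS1 at -0.84 to -0.59, VARS1 at -0.81 to -0.59, AARS1 at -0.67 to -0.53 and PCK2 at -0.85 to -0.64 on the log2 scale, so each stayed lower.

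YARS1, which charges tRNA with tyrosine (chromosome 2, 120849096 to 120881267), was at 251, 194 and 145 TPM in CYST and at 146, 117 and 92.2 TPM in MAT, in the order of the replicate numbers. The MAT library was lower within each of the 3 pairs, while the groups overlapped by the CYST library numbered 3. The log2 fold change of YARS1 was -0.74 ± 0.22 (SE; edgeR adjusted p = 0.119), and -0.74 ± 0.16 with the block (adjusted p = 0.0293). MARS1, the methionine enzyme that also charges the tRNA which starts proteins made in the cytosol (chromosome 5, 55959752 to 55988248), was at 129, 125 and 80.0 TPM in CYST and at 81.5, 55 and 61.9 TPM in MAT. Again the CYST library numbered 3 was the lowest of its group and lay within the range of MAT. The log2 fold change of MARS1 was -0.74 ± 0.21 (edgeR adjusted p = 0.0985; 0.0373 with the block). VARS1, the valine enzyme (chromosome 23, 27534307 to 27546145), was at 166, 227 and 120 TPM in CYST and at 102, 107 and 94.8 TPM in MAT, with no overlap between the groups. It differed by -0.74 ± 0.20 on the log2 scale (edgeR adjusted p = 0.0909; 0.0382 with the block). AARS1, the alanine enzyme (chromosome 18, 1783725 to 1813085), was at 211, 193 and 121 TPM in CYST and at 145, 98.8 and 93.1 TPM in MAT, and its log2 fold change was -0.63 ± 0.23 (edgeR adjusted p = 0.174; 0.0475 with the block).

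The remaining cytosolic enzymes did not pass the edgeR adjusted test, without or with the block. EPRS1, which carries the glutamate and the proline enzyme in 1 chain, was at 256, 287 and 174 TPM in CYST and at 171, 168 and 150 TPM in MAT, so the lowest CYST library stood just above the highest of MAT. Its log2 fold change was -0.54 ± 0.18 (edgeR adjusted p = 0.135; 0.0727 with the block). EPRS1, VARS1, KARS1 and WARS1 of the cytosol and SARS2 of the mitochondria were the 5 members whose TPM lay lower in MAT without overlap, where 11.8% of all genes did. QARS1 was the only cytosolic enzyme with a log2 fold change above 0, at 0.20 ± 0.16 (edgeR adjusted p = 0.541), from 41.5 to 56.9 TPM in CYST and 56.4 to 59.0 TPM in MAT.

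**Figure D1:**
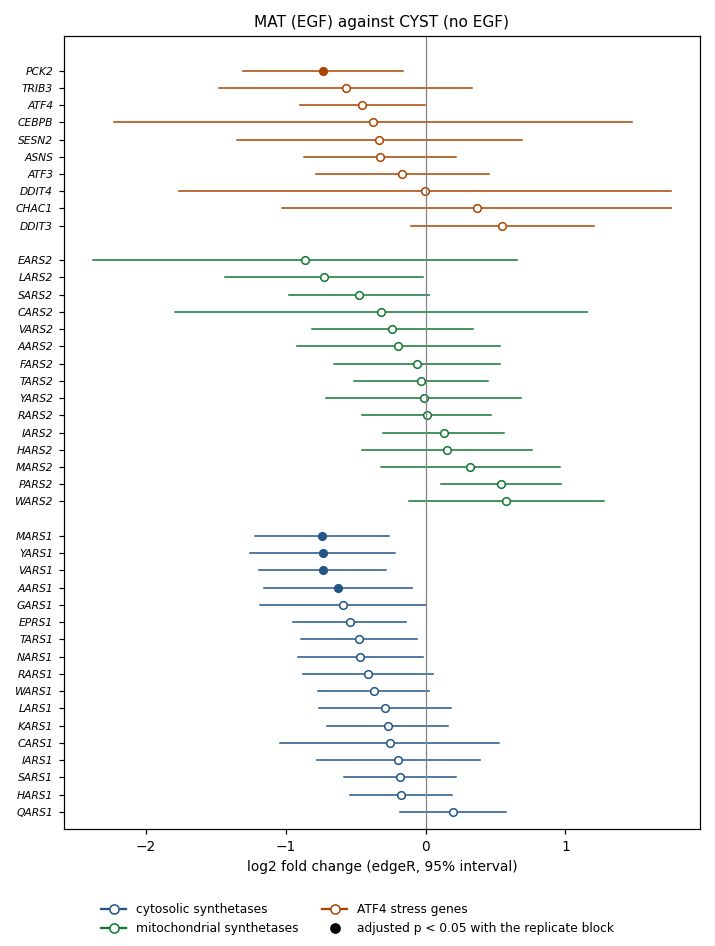
Log2 fold change of MAT against CYST for 42 of the 44 members tested, from edgeR without the replicate block, with 95% intervals as lines and 1 point per gene, grouped as cytosolic synthetases (blue), mitochondrial synthetases (green) and stress genes (orange). Filled points mark the 5 members with an adjusted p under 0.05 once the replicate block was added (YARS1, MARS1, VARS1, AARS1 and PCK2), and 16 of the 17 blue points lie left of 0.

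The mitochondrial synthetases were spread on both sides of 0, with 10 of 16 below 0 and a median log2 fold change of -0.05 (0.06 without the CYST library numbered 1), and none passed the adjusted test without or with the block. EARS2 had the lowest value at -0.86 ± 0.66 (edgeR adjusted p = 0.501), from 1.05 to 2.16 TPM in CYST and 0.521 to 1.24 TPM in MAT, or 3 to 31 reads. PARS2, the proline enzyme, was at 15.3, 16.7 and 13.5 TPM in CYST and at 25.1, 23.2 and 18.4 TPM in MAT, every MAT library being above every CYST library. The difference was 0.54 ± 0.19 on the log2 scale (edgeR adjusted p = 0.153; 0.110 with the block). WARS2, the tryptophan enzyme, had the highest value at 0.58 ± 0.30 (edgeR adjusted p = 0.329), at 12.6, 12.6 and 11.9 TPM in CYST and at 16.2, 15.2 and 24.2 TPM in MAT. PARS2, WARS2 and the stress gene DDIT3 were the 3 members that lay higher in MAT without overlap, where 11.9% of all genes did.

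For 14 amino acids both a cytosolic and a mitochondrial synthetase were measured. The log2 fold change of MAT against CYST was lower for the cytosolic enzyme in 9 of these 14 pairs and for the mitochondrial enzyme in 5. MARS1 and MARS2 differed most in this respect, with -0.74 against 0.32, followed by WARS1 and WARS2 with -0.37 against 0.58. In the opposite direction, LARS1 and LARS2 gave -0.29 against -0.72. The summed TPM of the 18 cytosolic enzymes was 9.29, 8.57 and 8.52 times that of the 16 mitochondrial enzymes in the CYST libraries, 7.28, 6.17 and 6.45 times in MAT and 6.62, 5.62 and 6.82 times in MAT + COL. All 3 CYST libraries were above all 6 libraries with EGF in this ratio, which is given as a description. The mitochondrial sum includes IARS2, at a mean of 102 TPM in CYST and 110 TPM in MAT, whose count could hold reads of BPNT1. The median log2 ratio of TPM over the 14 pairs did overlap between the groups. It was 2.97, 3.04 and 2.78 in CYST, 2.85, 2.69 and 2.73 in MAT and 2.64, 2.69 and 2.91 in MAT + COL.

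**Figure D2:**
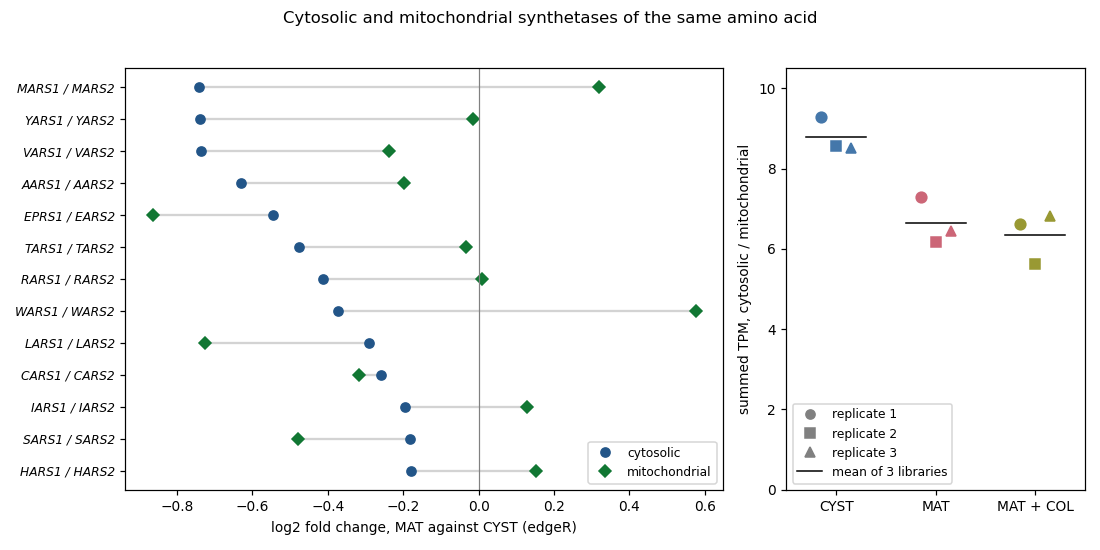
Left, log2 fold change of MAT against CYST (edgeR) for the cytosolic (blue circle) and mitochondrial (green diamond) synthetase of the same amino acid in 13 of the 14 pairs, joined by a line. Right, ratio of summed cytosolic to summed mitochondrial TPM in each of the 9 libraries with the group mean as a bar, with CYST at 8.52 to 9.29, MAT at 6.17 to 7.28 and MAT + COL at 5.62 to 6.82.

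Among the stress genes 8 of the 10 tested had a log2 fold change of MAT against CYST below 0, with a median of -0.33 that leaving out 1 library moved between -0.47 (without the MAT library numbered 1) and -0.11 (without the CYST library numbered 1). With RLE size factors (48% of all genes below 0), limma on log2(TPM + 1) (48.7%) or the replicate block, 7 of 10 were below 0. ATF4 itself (chromosome 5, 110946575 to 110948715) was at 533, 518 and 356 TPM in CYST and at 417, 298 and 309 TPM in MAT. The MAT library was lower in each pair, and only the CYST library numbered 3 lay within the range of MAT. The log2 fold change of ATF4 was -0.45 ± 0.19 (edgeR adjusted p = 0.236; 0.113 with the block). PCK2, the mitochondrial enzyme that makes phosphoenolpyruvate from oxaloacetate (chromosome 10, 21035549 to 21044740), was at 229, 161 and 125 TPM in CYST and at 128, 106 and 76.5 TPM in MAT. It was the only stress gene called, at -0.73 ± 0.25 without the block (edgeR adjusted p = 0.146) and -0.73 ± 0.16 with it (adjusted p = 0.0342). ASNS, which makes asparagine and is among the best known ATF4 targets, was at 154, 111 and 79.8 TPM in CYST and at 114, 84.8 and 75.6 TPM in MAT. Its difference was -0.32 ± 0.24 on the log2 scale (edgeR adjusted p = 0.483), and -0.07 without the CYST library numbered 1. TRIB3, a pseudokinase that restrains ATF4, was at 28.8, 16.3 and 11.8 TPM in CYST and at 18.2, 10.6 and 9.33 TPM in MAT, lower in MAT within each pair, and differed by -0.57 ± 0.39 (edgeR adjusted p = 0.454), or by -0.16 without the CYST library numbered 1.

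Not all stress genes lay on the lower side. DDIT3, which encodes the factor CHOP of prolonged stress, was at 10.3, 12.4 and 11.5 TPM in CYST and at 16.2, 17.7 and 16.6 TPM in MAT, so that the groups did not overlap. The log2 fold change was 0.55 ± 0.28 (edgeR adjusted p = 0.320; 0.251 with the block). The last 758 bases of DDIT3 on chromosome 5 (55959752 to 55960509) are shared with MARS1 on the opposite strand, and the strand setting of the counting is not given in the sources used here, so reads from these bases cannot be told apart. ATF3, another factor induced by stress, was at 29.9, 40.5 and 39.6 TPM in CYST and at 25, 36.9 and 37.5 TPM in MAT, with a log2 fold change of -0.17 ± 0.27 (edgeR adjusted p = 0.782). CHAC1, which degrades glutathione, was at 15.6, 8.23 and 7.14 TPM in CYST and at 26.8, 6.53 and 7.25 TPM in MAT. Its log2 fold change of 0.37 ± 0.60 (edgeR adjusted p = 0.790) rested on the MAT library numbered 1, and without that library it was -0.50.

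**Figure D3:**
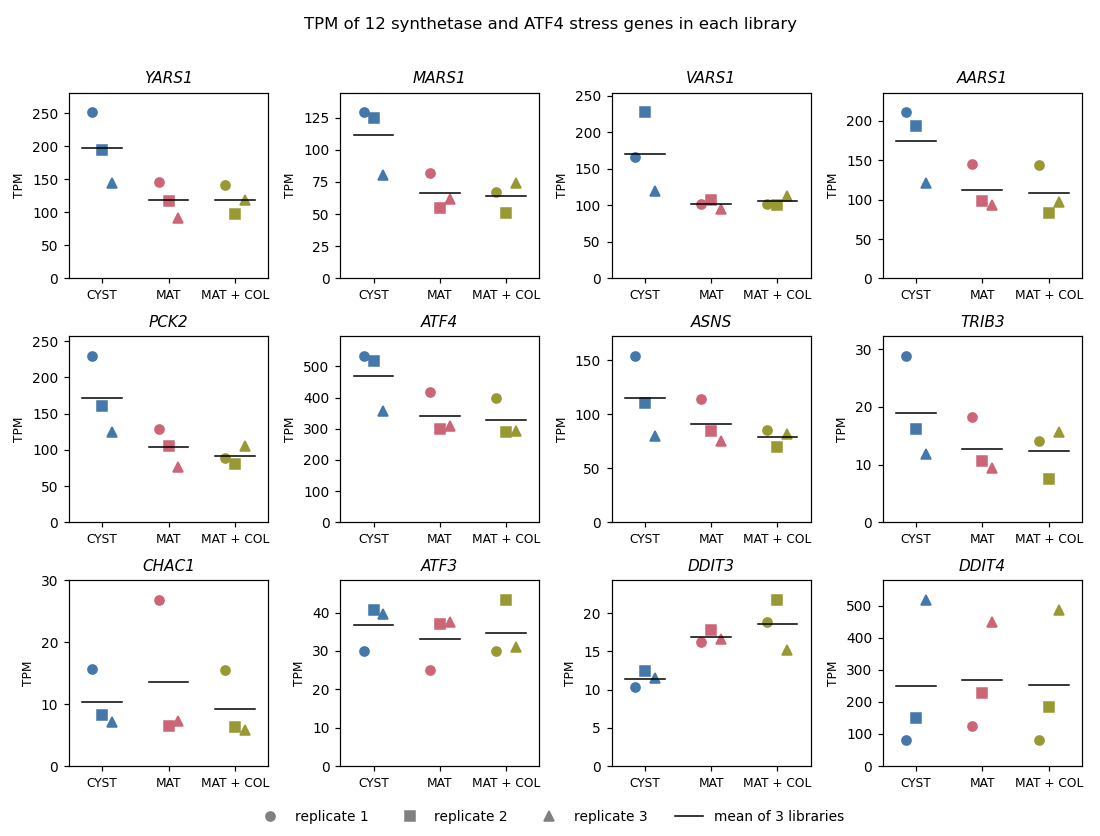
TPM (linear axis from 0) of 12 members in each of the 9 libraries, with CYST in blue, MAT in red and MAT + COL in olive, the marker shape giving the replicate number and the bar the mean of 3 libraries. YARS1, MARS1, VARS1, AARS1, PCK2 and ATF4 have their highest libraries in CYST, DDIT3 has all 3 CYST libraries below the other 6, and in DDIT4 and CHAC1 the same replicate number stands apart in every group.

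MAT + COL was also compared with CYST, a contrast in which EGF and collagen I were both added. It shares the CYST libraries with the comparison above, so the values are side by side and are not independent. The cytosolic synthetases again had 17 of 18 log2 fold changes below 0 (47% of the 12509 genes tested), with a median of -0.44 against 0.04 for all genes. For the mitochondrial synthetases 11 of 16 were below 0 (median -0.17), and for the stress genes 9 of 11 (median -0.24). In edgeR 0 of 45 members were called, without the block (0.815% of all genes lower and 0.672% higher) or with it (2.58% lower and 2.68% higher). At an unadjusted p under 0.05 without the block, edgeR gave 12 members lower (11.3% of all genes) and 1 higher (10.4%). DESeq2 called 8 members lower (YARS1, GARS1, MARS1, EPRS1, AARS1, VARS1, ATF4 and PCK2; 4.97% of all genes) and, with the block, WARS1 as well, where 6.01% of all genes were lower. The likelihood ratio test called MARS1 and PCK2 (4.3% of all genes lower), and limma on log2(TPM + 1) called 0 (0.544%). With the block and without the pair numbered 3, edgeR called 15 members lower (9.79% of all genes), and without the pair numbered 1 or 2 it called 0 (0.372% and 0.378%).

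PCK2 had the lowest log2 fold change of MAT + COL against CYST, -0.95 ± 0.23 (edgeR adjusted p = 0.0747; 0.0629 with the block), at 88.9, 81.0 and 105 TPM in MAT + COL. All 3 of these libraries were below the CYST libraries given above. YARS1, at 142, 97.7 and 118 TPM, differed from CYST by -0.78 ± 0.20 (edgeR adjusted p = 0.0878; 0.0517 with the block). MARS1, at 67.3, 51.0 and 74.4 TPM, differed by -0.83 ± 0.21 (edgeR adjusted p = 0.0827; 0.0737 with the block). Both lay below CYST without overlap, as did VARS1 at 103, 101 and 114 TPM, and with EPRS1, KARS1, WARS1 and PCK2 these made 7 such members, where 10.3% of all genes lay lower without overlap. AARS1, at 144, 82.5 and 97.1 TPM, overlapped CYST by its library numbered 1 and differed by -0.75 ± 0.23 (edgeR adjusted p = 0.120; 0.0633 with the block). ATF4, at 399, 289 and 293 TPM, differed by -0.58 ± 0.17 (edgeR adjusted p = 0.111; 0.0750 with the block).

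The members that lay higher than CYST in MAT + COL without overlap were DDIT3, PARS2, WARS2 and HARS2, 4 of 45, where 14.3% of all genes did. DDIT3 was at 18.8, 21.7 and 15.2 TPM, with a log2 fold change of 0.63 ± 0.27 (edgeR adjusted p = 0.239). PARS2 was at 21.5, 26.5 and 23.1 TPM, with 0.59 ± 0.18 (edgeR adjusted p = 0.116). ASNS, at 86.0, 69.6 and 81.6 TPM, overlapped the lowest CYST library and differed by -0.58 ± 0.21 (edgeR adjusted p = 0.170). TRIB3, at 14.0, 7.50 and 15.7 TPM, differed by -0.64 ± 0.40 (edgeR adjusted p = 0.405), or by -0.26 without the CYST library numbered 1. ATF3, at 30.0, 43.3 and 31.1 TPM, and CHAC1, at 15.6, 6.29 and 5.87 TPM, had log2 fold changes of -0.15 ± 0.26 and -0.24 ± 0.48, both smaller than their SE.

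Collagen I was examined by comparing MAT + COL with MAT. In edgeR 0 of 45 members were called without or with the block, as were 0% of the 12470 genes tested. At an unadjusted p under 0.05 without the block, edgeR gave 0 members (0.184% of all genes lower and 0.225% higher), and so did DESeq2 (0.205% and 0.314%). With the block each gave GARS1 and DDIT4 lower, where edgeR gave 2.8% and DESeq2 1.7% of all genes lower. DESeq2, the likelihood ratio test and limma also called 0 at an adjusted p of 0.05, and no member separated the groups without overlap, where 0.818% of all genes lay lower and 2.75% higher. Log2 fold changes ran from -0.62 ± 0.64 for CHAC1, which was 0.28 without the MAT library numbered 1, to 0.71 ± 0.68 for EARS2. The 3 members with the smallest p were ASNS at -0.28 ± 0.18, MARS2 at -0.41 ± 0.31 and WARS2 at -0.35 ± 0.28, each with an edgeR adjusted p of 1.00.

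Without the block the 95% intervals of these differences varied widely among the abundant members. The interval of VARS1 reached from -0.37 to 0.34 on the log2 scale, that of YARS1 from -0.51 to 0.40, that of MARS1 from -0.63 to 0.41 and that of AARS1 from -0.69 to 0.41. For ATF4 the interval was -0.57 to 0.28, for PCK2 -0.73 to 0.27 and for DDIT3 -0.50 to 0.61. Wider intervals belonged to GARS1 (-0.89 to 0.38), CARS1 (-1.32 to 0.85) and DDIT4 (-1.86 to 1.57). For these, larger changes are within the error of that fit. With the block they were narrower, at -0.50 to -0.0095 for GARS1, -0.62 to 0.072 for CARS1 and -0.66 to -0.0072 for DDIT4. The edgeR adjusted p with the block was 0.955 for each. Without the block the median log2 fold change was -0.08 for the cytosolic enzymes (14 of 18 below 0) and -0.02 for the mitochondrial enzymes (8 of 16). For the stress genes it was -0.15 (9 of 11), where 50.1% of all genes were below 0. These signs depended on the scale: with limma on log2(TPM + 1), where the median of all genes was 0.07 and 35.5% were below 0, the cytosolic enzymes had 9 of 18 below 0 and a median of 0.00.

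**Figure D4:**
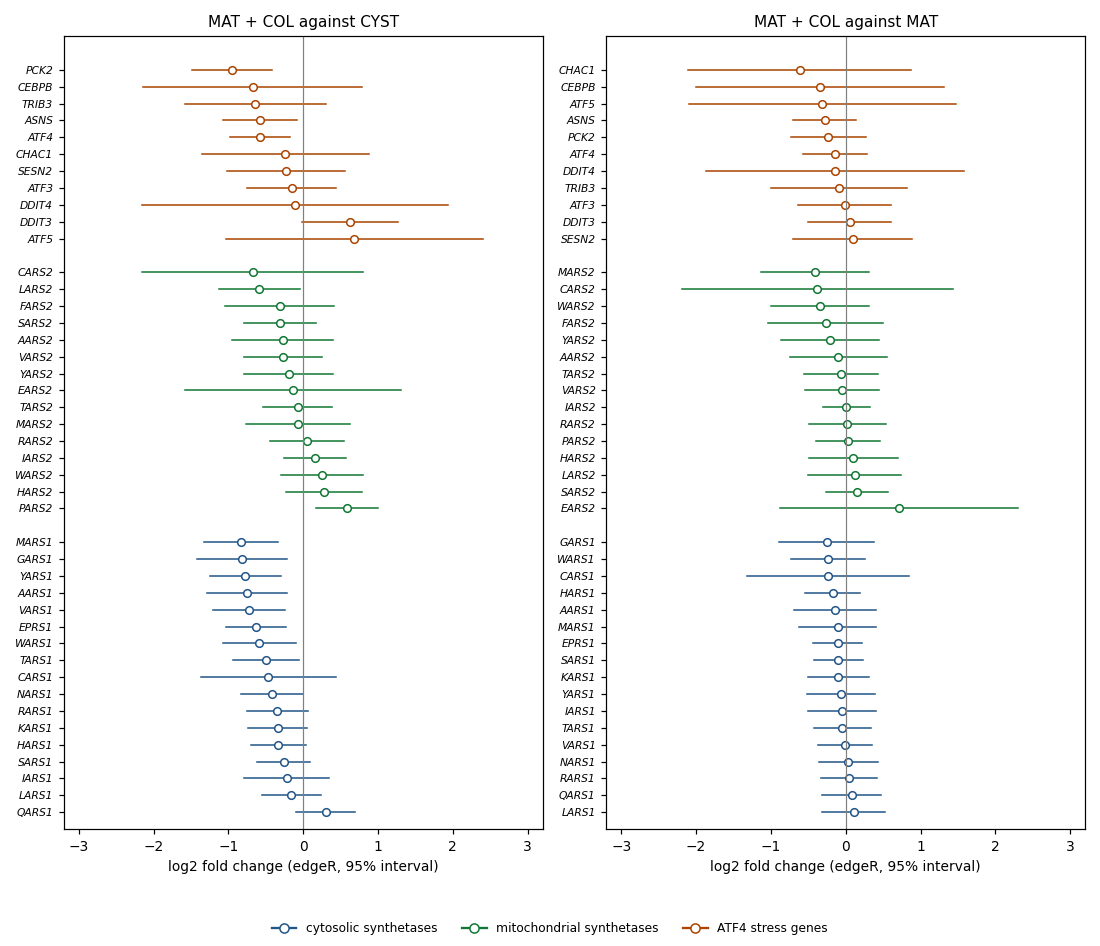
Log2 fold change with 95% intervals (edgeR without the replicate block) of 43 of the 45 members for MAT + COL against CYST on the left and MAT + COL against MAT on the right, on the same axis, coloured by role. On the left 16 of the 17 cytosolic enzymes drawn lie below 0, and on the right every interval includes 0.

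For several members the replicate number carried more of the spread than the group did. The variance of log2 CPM (reads scaled to library size, with TMM) over the 9 libraries was divided into a share between groups and a share between replicate numbers, which for all genes had medians of 29.9% and 32.0%. The cytosolic synthetases had medians of 58.7% and 25.9%, the mitochondrial synthetases 25.9% and 22.6%, and the stress genes 28.3% and 37.5%. These shares are descriptions over 9 libraries, and the genes named here were chosen after the values were seen. DDIT4, an inhibitor of the growth kinase mTORC1, had 93.7% of its variance between replicate numbers and 2.45% between groups. It was at 79.8, 149 and 518 TPM in CYST, at 126, 227 and 450 TPM in MAT and at 82.4, 185 and 487 TPM in MAT + COL, so the library numbered 3 was the highest and the library numbered 1 the lowest in every group. Its log2 fold change of MAT against CYST was -0.01 ± 0.76 without the block and 0.34 ± 0.24 with it (edgeR adjusted p = 0.998 and 0.402).

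CHAC1 had 83.8% of its variance between replicate numbers, and its library numbered 1 was the highest in every group. SESN2, which senses leucine and restrains mTORC1, had 66.7%, at 16.4, 12.9 and 5.43 TPM in CYST and at 13.1, 9.38 and 4.79 TPM in MAT. Among the synthetases TARS2 had 78.5% and CARS2, the mitochondrial cysteine enzyme, 61.7%. CARS2 was at 34.2, 13.5 and 12 TPM in CYST, at 25, 4.07 and 18.6 TPM in MAT and at 11, 4.32 and 22.3 TPM in MAT + COL, the lowest library with EGF being numbered 2 in both groups. At the other end EPRS1 had 86.3% of its variance between groups and 1.14% between replicate numbers, followed by PARS2 (81.5% between groups), VARS1 (78.9%) and DDIT3 (77.6%). Whether a replicate number stands for an animal, a culture day or another factor is not given in the labels. The paper states that its MAT and MAT + COL libraries clustered mainly by individual, without tying individuals to replicate numbers.

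**Figure D5:**
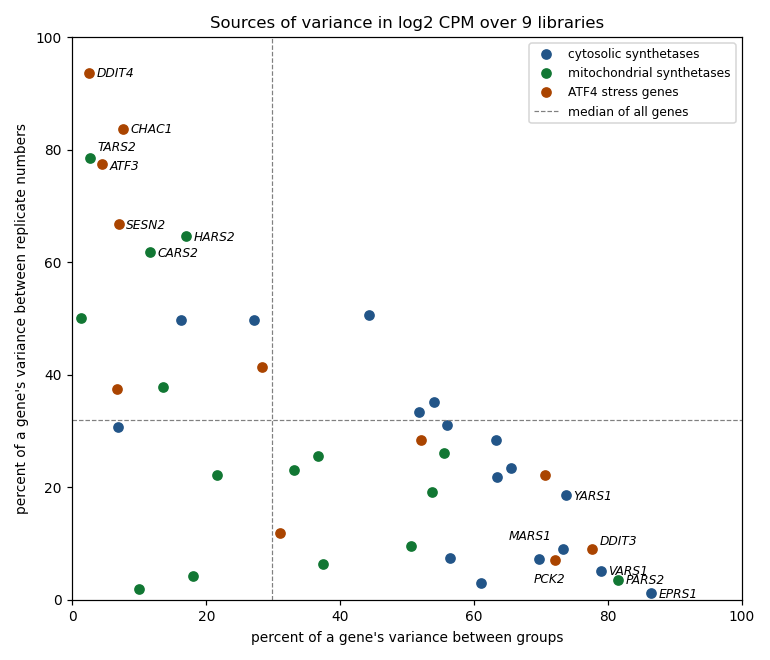
Percent of the variance of log2 CPM over 9 libraries that lies between groups (x axis) and between replicate numbers (y axis) for 43 of the 45 members, coloured by role, with dashed lines at the medians of all genes (29.9% and 32.0%). DDIT4 and CHAC1 lie at the upper left (93.7% and 83.8% between replicate numbers) and EPRS1 at the lower right (86.3% between groups).

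The other genes of these pathways were read from lists, which were also chosen with earlier results of these data known. Their counts called in MAT against CYST stand beside 0.944% of all genes lower and 0.845% higher without the block, and 5.67% and 4.9% with it. Among 12 relatives and scaffolds of the synthetases, edgeR called EEF1E1 lower in MAT than in CYST without the block, and with it EEF1E1, AIMP2, FARSA and FARSB lower and TARS3 higher. EEF1E1, a scaffold of the multi-synthetase complex, was at 76.4, 79.8 and 66.1 TPM in CYST and at 35.5, 29.9 and 29.6 TPM in MAT, less than any CYST library. Its log2 fold change was -1.24 ± 0.18 (edgeR adjusted p = 0.0285), and leaving out 1 library ended the call in 5 of 6 cases with adjusted p up to 0.124, while the log2 fold change stayed between -1.26 and -1.19. FARSA and FARSB gave -0.76 and -0.80 with the block, close to YARS1, MARS1 and VARS1. TARS3, a further threonine enzyme, gave 1.92 with the block (edgeR adjusted p = 0.0316), from 1.82 to 3.25 TPM in CYST and 6.32 to 18.8 TPM in MAT.

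Of the 16 eIF2 kinases and regulators 0 were called without the block (0.944% of all genes lower), and EIF2B1 and EIF2B3, subunits of the exchange factor that reloads eIF2, fell with it (5.67%), by 0.85 and 0.95 on the log2 scale (edgeR). Of 25 listed metabolic and transport targets of ATF4, 2 fell without the block (0.944% of all genes) and 8 with it (5.67%), and none rose (0.845% and 4.9%). The 2 were PHGDH, which starts serine synthesis, and CTH, which makes cysteine from cystathionine. PHGDH was at 741, 400 and 339 TPM in CYST and at 141, 75.1 and 91.9 TPM in MAT, and CTH at 111, 82.0 and 51.8 TPM in CYST and at 17.4, 12.2 and 4.29 TPM in MAT. Both had every MAT library below every CYST library, with log2 fold changes of -2.26 ± 0.34 and -2.86 ± 0.47 (edgeR adjusted p = 0.0308 and 0.0401). Leaving out 1 library ended the call of PHGDH in 5 of 6 cases and that of CTH in 4 of 6, with adjusted p up to 0.0991 and 0.140, while the log2 fold changes stayed at -2.48 to -1.87 and -3.24 to -2.48. The other 6 called with the block were PSAT1 and PSPH of serine synthesis, the folate enzyme MTHFD2, and SLC7A1, SLC1A5 and SLC3A2 of amino acid transport. These 6 fell by 0.81 (SLC7A1 and SLC3A2) to 1.26 (PSAT1 and MTHFD2) on the log2 scale. SLC7A5 is not listed under that symbol.

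Of 17 genes of the other branches of the unfolded protein response, CRELD2 and SDF2L1 fell without the block (log2 fold change -1.33 ± 0.25 and -1.21 ± 0.21, edgeR adjusted p = 0.0462 and 0.0411), and HSPA5, HYOU1 and MANF fell as well with it. The calls of CRELD2 and SDF2L1 ended in each of the 6 cases where 1 library was left out, with adjusted p up to 0.161, while the log2 fold changes stayed at -1.44 to -1.12 and -1.25 to -1.06. HSPA5, the main chaperone of the endoplasmic reticulum, gave -0.71 with the block (edgeR adjusted p = 0.0392). Among 8 elongation factors tested, 0 were called without the block (0.944% of all genes lower) and the mitochondrial factors TSFM, GFM2 and TUFM fell with it (5.67%), by 0.73, 1.06 and 0.62 on the log2 scale. SESN3, a relative of SESN2, was at 1.28 to 2.13 TPM in CYST and 6.21 to 11.5 TPM in MAT and rose by 2.22 with the block (edgeR adjusted p = 0.0225), the only gene called among 6 relatives of the stress genes tested. None of the 8 CEBP and ATF partners tested passed the edgeR adjusted test, with or without the block. The list genes that edgeR called in MAT against CYST only with the block depended on the setting. Of the 21 settings run for each, between 2 (TUFM) and 10 (MANF and SESN3) called them, and each gene kept its direction.

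The medians of these lists in MAT against CYST were -0.40 for the synthetase relatives, -0.31 for the eIF2 genes, -0.67 for the ATF4 targets, -0.39 for the unfolded protein response genes, -0.48 for the elongation factors, 0.01 for the CEBP and ATF partners and 0.52 for the relatives of the stress genes. In MAT + COL against CYST the called genes without the block were EEF1E1, AIMP2, PHGDH, CTH, SLC7A1, SLC3A2 and SDF2L1, all lower, and SESN3, higher. CTH again had the lowest value, -3.31 ± 0.29 (edgeR adjusted p = 0.0139), a call that leaving out 1 library ended in 2 of 6 cases with adjusted p up to 0.0860 and log2 fold changes of -3.50 to -3.06. The calls of the other 7 ended in 5 or 6 of 6 such cases, with adjusted p up to 0.176 (EEF1E1), and each kept its direction. In MAT + COL against MAT no gene of these lists was called.

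Of the 45 members 14 overlap the span of another listed gene, and reads in a shared stretch may have been counted for either gene because the strand setting is not given in the sources used here. KARS1 shares 788 bases with TERF2IP, at 22.7 to 36.9 TPM, and ATF5 shares 1714 bases with NUP62, at 5.10 to 9.95 TPM. EARS2 lies wholly within the span of UBFD1, over all its 34403 bases. UBFD1 was at 5.87 to 21.2 TPM where EARS2 was at 0.521 to 2.22 TPM. HARS1 and HARS2 lie 130 bases apart without overlap. YARS1, VARS1, AARS1, PCK2, ATF4 and EPRS1 overlap no other listed gene.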

How the data were processed

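The study prepared RNA libraries from 9 cultures with the SMART-Seq HT PLUS kit, and the authors trimmed the reads and aligned them to the bovine genome (ARS-UCD2.0) in CLC Genomics Workbench with default parameters. The authors deposited raw counts of reads per gene, without normalization, together with a TPM for every gene in every library. The annotation release and strand setting are not given in the sources used here. Coordinates and symbols are those of the deposited files.

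The tests used edgeR 4.0.16 in R 4.3.3: filterByExpr by group (minimum count of 10), TMM, and the two-sided quasi-likelihood test of glmQLFit and glmQLFTest within the 6 libraries compared, with Benjamini-Hochberg adjustment over all genes tested. ATF5 did not pass the filter in MAT against CYST. Alternatives were DESeq2 1.42.0, RLE size factors, no filter, the likelihood ratio test, all 9 libraries in 1 fit, limma 3.58.1 on log2(TPM + 1) or log2(TPM + 0.1), the criteria for DEGs of the study (a log2 fold change beyond 1 and a TPM above 1), leaving out each library, and the replicate number as a block. Combinations of the block with other choices were added after seeing the data. As a check of the pairing, the deviations of libraries with 1 number from their own group's mean were correlated. The r values were 0.329, 0.437 and 0.396 for MAT and CYST. For MAT + COL and CYST they were 0.278, 0.350 and 0.347, and for MAT + COL and MAT 0.471, 0.613 and 0.687. All were above the 0.1 needed to take the numbers as pairs. Their means were 0.388, 0.325 and 0.591 in that order. The highest mean r of any other pairing was 0.055, 0.092 and 0.192, so the last also passed 0.1.

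Named with values were the members called in any comparison, ATF4, ATF3, DDIT3, TRIB3, CHAC1 and ASNS, and in each role the member with the smallest p, the highest and the lowest log2 fold change of MAT against CYST; for collagen I the 3 smallest p. Members and lists were chosen with earlier results of these data known. Single values of 2 members are not reported here, though counts, sums and medians include them. The plots were made in Python 3.11.15 (matplotlib 3.10.9).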

Additional observations from a re-analysis of the deposited data

How the results depend on the processing

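With the replicate block, which pairs libraries of the same number, edgeR called 5 members lower in MAT than in CYST instead of 0, and left edgeR's counts at an adjusted p of 0.05 at 0 in the other comparisons. DESeq2 gave 2 there, the block with DESeq2 7, the block with RLE size factors 4, and the block without the libraries numbered 3 gave 7 lower and 1 higher. For MAT + COL against CYST, DESeq2 gave 8 members lower and the likelihood ratio test 2, while the block gave 9 in DESeq2, 1 under RLE size factors and 15 without the libraries numbered 3, again in place of 0. The cause of these changes was not tested. Leaving out single libraries without the block gave 0 members called in each comparison, with cytosolic medians of -0.47 to -0.31 in MAT against CYST and -0.53 to -0.33 in MAT + COL against CYST, where the block without the libraries numbered 3 gave -0.61. The stress gene median moved from -0.47 to -0.11 and from -0.55 to -0.26 in these comparisons.

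Signs turned in ATF3, CHAC1, EARS2, DDIT4 and YARS2, and none of the alternatives run for ATF3, CHAC1 and EARS2 called them. DDIT4 was at -0.0071 in MAT against CYST, 0.34 with the block and 0.0056 with DESeq2, and at -0.11 in MAT + COL against CYST and 0.023 with the block. YARS2 was at -0.014 in MAT against CYST and 0.0053 with DESeq2. For DDIT4 and for members not named by the rule, only edgeR, the block and DESeq2 were tabulated gene by gene. In MAT against CYST, leaving out single libraries moved ATF3 from -0.29 to 0.060 (the latter without MAT replicate 1, and 0.013 without CYST replicate 3) and CHAC1 from -0.50, without MAT replicate 1, to 0.76, and the block without replicate 1 gave CHAC1 -0.15. In MAT + COL against CYST it moved ATF3 from -0.37 to 0.024 (without CYST replicate 3), CHAC1 from -0.75 to 0.13 (without CYST replicate 1) and EARS2 from -0.61 to 0.15 (without MAT + COL replicate 2, and 0.074 without CYST replicate 2), and the block gave ATF3 0.040 without replicate 3 and EARS2 0.32 without replicate 2. In MAT + COL against MAT it moved CHAC1 from -1.13 to 0.28, the latter without MAT replicate 1. The criteria for DEGs were applied to the edgeR calls without the block. These were already 0 among the members in each comparison, so the criteria could not give another count. EARS2, CEBPB and ATF5 had as few as 3, 9 and 2 reads in a library, so their values carry the most counting error among the members.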
